A study of Homo sapiens with 96 samples.

Results

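The glycolysis genes described here were followed through 96 RNA libraries of A375, an established human melanoma line. There are 10 of them, SLC2A1, HK2, PFKP, PFKFB3, ALDOA, GAPDH, PGK1, ENO1, PKM and LDHA, taken by symbol from the 44659 entries of the count table. All A375 cells were kept for 18 h either in DMSO or in MAPKi, that is, 500 nM vemurafenib plus 500 nM cobimetinib, which inhibit the kinases BRAF and MEK. They were then given vehicle (DMSO), cycloheximide at 100 µg/ml (CHX, a blocker of translation elongation), triptolide at 25 µM (T, a blocker of transcription) or both (TCHX), with CHX added 5 min before T, and were harvested at 0, 1, 3 and 5 h. With 2 pretreatments, 4 arms and 4 times there were 32 groups of 3 libraries, all from cytoplasmic RNA of this 1 cell line, so the spread given below is that between libraries of this line. Each time was harvested from its own set of plates, so time and plate set cannot be told apart. Nothing in the labels says that replicates were independent cultures, and p-values measure the spread between these libraries, which may be technical.

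Glycolysis splits glucose into pyruvate and, through lactate dehydrogenase, lactate. Glucose enters through transporters such as SLC2A1 (GLUT1), is trapped by hexokinases such as HK2, and is committed at the phosphofructokinase step, which PFKP catalyses and which is stimulated by fructose 2,6-bisphosphate, the product of PFKFB3. The lower steps, run by ALDOA, GAPDH, PGK1, ENO1, PKM and LDHA, carry the carbon to pyruvate and lactate and yield the ATP. BRAF-mutant melanoma cells are known for high glucose use under MAPK signalling, and several of these genes are known targets of the factors MYC and HIF1A.

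Sequence differs between the members at the end of the mRNA, where the assay reads. The motif TATTTAT, the core of an AU-rich element (a class of 3′ UTR sequence known for binding decay factors), was searched on the transcript strand in the 3′ UTR of the MANE Select transcript of each gene. It occurred in 4 of the 10 members, SLC2A1, HK2, PFKFB3 and PGK1, and 2 or more times in HK2 and PFKFB3. Of 18780 MANE Select transcripts, 32.1% held at least 1 and 13.7% at least 2. The sites are shown because PFKFB3, whose copies overlap, had the largest log2 change of the tested members with triptolide. Of the other carriers, HK2 was not called lower with triptolide in the tests below, and SLC2A1 and PGK1 were. PFKP, which lacks the motif, was called lower too. Whether the motif bears on decay was not tested. Each line gives 30 bases with the motif in capitals.

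PFKFB3: agatgtgcTATTTATTTATttaatatgtat
HK2, site 1: acgtaatgTATTTATatgttaatttgttat
HK2, site 2: tttttgtaTATTTATcaaacttgtgctgag
SLC2A1: atgcaagaTATTTATatatatttttggttg
PGK1: agtgcataTATTTATattttgcctgttaaa

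The PFKFB3 line begins at base 2343 after the stop codon, in a 3′ UTR of 2590 bases. Lengths of the members' 3′ UTRs ran from 201 bases in GAPDH to 3465 in PGK1, so longer 3′ UTRs had more room for a match. PFKP, ALDOA, GAPDH, ENO1, PKM and LDHA had no TATTTAT, which says only that these letters are not there.

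Upstream of the genes, RefSeq promoters of GRCh38.p14 (250 bases before to 50 after a start site) were matched by symbol for all 10 members, 18 promoters in all. The letters ACGTG, the core to which HIF binds, were searched on both strands and stood in 10 of these 18 promoters, from 7 members, against 21.4% of all 35116 promoters. The E-box CACGTG, bound by MYC and related factors, contains ACGTG on both strands and stood in 5 of 18, from ALDOA, GAPDH, HK2, LDHA and PFKFB3, against 7.26% of all. GCGTG, also read by HIF, stood in 10 of 18 against 36.5%. TGACTCA, the AP-1 site, stood in none of the 18 and in 4.95% of all. These are matches of letters, not bound sites. SLC2A1 and PFKP, also lower under MAPKi, had no E-box, and GAPDH, which did, had a log2 change of −0.059 over the vehicle times. A link between the E-box and the response to MAPKi was not tested. The promoters of HK2 and PFKFB3 that hold an E-box are shown, since these genes were among those lower under MAPKi, with CACGTG in capitals.

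HK2, chr2:74834920-74835219, plus strand: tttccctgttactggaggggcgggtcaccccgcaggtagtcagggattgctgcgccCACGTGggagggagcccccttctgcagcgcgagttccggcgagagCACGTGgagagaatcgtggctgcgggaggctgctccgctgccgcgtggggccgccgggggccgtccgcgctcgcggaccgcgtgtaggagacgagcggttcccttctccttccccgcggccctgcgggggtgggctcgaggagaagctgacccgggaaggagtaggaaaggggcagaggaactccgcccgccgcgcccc
PFKFB3, chr10:6202682-6202981, plus strand: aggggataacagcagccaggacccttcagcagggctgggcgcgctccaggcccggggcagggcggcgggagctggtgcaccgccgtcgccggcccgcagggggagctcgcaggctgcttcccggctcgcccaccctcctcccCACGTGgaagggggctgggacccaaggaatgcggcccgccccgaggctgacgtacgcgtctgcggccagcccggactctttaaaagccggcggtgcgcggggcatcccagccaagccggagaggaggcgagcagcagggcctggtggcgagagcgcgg

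The libraries held between 2381351 and 12520154 counts (median 7143396), and 14948 genes passed a filter on low counts. Of the 10 members, 8 passed it and were tested. Levels are given as CPM, counts relative to the TMM-scaled library total, and, since QuantSeq reads transcript ends, a level does not scale with transcript length. Pearson correlations between libraries of a group were 0.953 to 0.987. The A375 identity was checked with melanocyte and neural crest markers: 8 of 11 had a median above 1 CPM, among them SOX10 and MITF, and their sum ran from 787 to 1144 CPM in DMSO and from 2404 to 4231 CPM in MAPKi, whereas TYR and MLANA were at 0 in 40 and 31 libraries. The part of this shift in any result below was not tested. Summed leukocyte markers ran from 1.22 to 30.7 CPM, mostly CD68, with CD3E at 0 in all 96 libraries, and endothelial, epithelial and fibroblast sums reached at most 3.14, 4.69 and 9.63 CPM.

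ALDOA, the aldolase of the pathway, and LDHA, the lactate dehydrogenase, were nearly without counts and were not tested. ALDOA held 0 to 7 counts and was at 0 in 90 of 96 libraries, and LDHA held 0 to 3 counts and was at 0 in 84. A count of 0 allows up to 3 counts in a library, so no difference in these entries was detectable at this depth, a limit that covers counting error only. The table holds a repeat entry, LDHA_1, with 1 to 30 counts, which passed the filter but was not taken as a member. Among protein-coding symbols with such a repeat entry, 6.53% of 1271 had a median count over 10, against 58.0% of 17834 symbols without one. ALDOA is overlapped in GRCh38 by another protein-coding gene on the same strand, listed as LOC112694756 in the table with 0 to 3 counts. The cause of these low counts was not tested, and they do not show that the mRNAs were absent.

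The 10 members held 0.937% to 1.82% of all counts in a library, with a median of 1.35%, and GAPDH, PGK1, ENO1 and PKM supplied 93.6% to 98.9% of them. Some ends have copies elsewhere in the genome, so that mapping could split their reads: 70.7% of 31-base stretches in the last 300 bases of PGK1 had an exact copy, 61.9% in GAPDH, 54.8% in HK2, 19.6% in PKM, 7.41% in ENO1 and in PFKFB3, and 0% in SLC2A1 and PFKP. Whether counting used strand is not stated. SLC2A1 (GRCh38 chromosome 1, 42925353 to 42958893), PFKFB3 (chromosome 10, 6144934 to 6254644), GAPDH (chromosome 12, 6534512 to 6538374), PGK1 (chromosome X, 77910739 to 78129295) and ENO1 (chromosome 1, 8861000 to 8879190) overlap other genes on the opposite strand, and their counts are uncertain to that extent. The antisense entry ENO1-AS1 held 0 to 55 counts and SLC2A1-AS1 0 to 16. Overlaps on the same strand are ambiguous with or without use of strand. They were listed for PGK1 (ATP7A and C4orf46P2), PFKP (a long noncoding RNA), SLC2A1 (ATP6V0CP4), PFKFB3 (RN7SKP78 and MIR3155A) and ENO1 (MIR6728).

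The comparison of MAPKi with DMSO in the vehicle arm asks which members differ after 18 h of kinase inhibition. SLC2A1, HK2, PFKP and PFKFB3, called the upper-step members below, were lower in MAPKi, and the changes of GAPDH, PGK1, ENO1 and PKM, the lower-step members, were closer to 0. Averaged over the 4 vehicle times, SLC2A1, HK2, PFKP, PFKFB3 and ENO1 were lower and PGK1 was higher, or 5 lower and 1 higher of 8, while 32.9% of all genes tested were lower and 36.2% higher. At 0 h alone 4 were lower and 1 higher, against 23.6% and 22.3% of all genes. The members' median log2 change over the 4 times was −0.50, against 0.060 for all genes tested.

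PFKFB3, the bifunctional enzyme that makes the activator of phosphofructokinase, had the largest change of the 8. At 0 h it stood at 151, 157 and 146 CPM in the 3 DMSO libraries and at 30.2, 38.3 and 43.8 CPM in the 3 MAPKi libraries. The groups did not overlap at 0 h or at any other arm and time. The fitted log2 change at 0 h was −2.01 with a standard error of 0.15 (adjusted p = 3.32e-20), and over the 4 vehicle times −1.49 with a standard error of 0.073 (adjusted p = 3.19e-31).

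PFKP, the platelet-type phosphofructokinase, was at 198, 172 and 167 CPM in DMSO and 86.6, 109 and 97.7 CPM in MAPKi at 0 h. All 12 MAPKi libraries of the vehicle arm were below the lowest of the 12 DMSO libraries. The log2 change over the vehicle times was −0.93 with a standard error of 0.065 (adjusted p = 2.06e-22).

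SLC2A1, a glucose transporter, was at 69.4, 107 and 117 CPM in DMSO at 0 h and 51.8, 55.0 and 60.0 CPM in MAPKi. The DMSO libraries were spread widely but stayed above the MAPKi libraries of the same time. Its log2 change over the vehicle times was −0.84 with a standard error of 0.090 (adjusted p = 1.39e-13).

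HK2, a hexokinase, was at 45.9, 74.6 and 89.0 CPM in DMSO at 0 h and 34.9, 29.9 and 43.2 CPM in MAPKi. The lowest DMSO library lay just above the highest MAPKi library. Its log2 change over the vehicle times was −0.90 with a standard error of 0.14 (adjusted p = 1.85e-08). HK1, another hexokinase gene and not a member, had higher medians, 132 CPM in DMSO and 130 CPM in MAPKi. It was not called over the vehicle times (log2 change −0.065, edgeR adjusted p = 0.424).

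**Figure D1:**
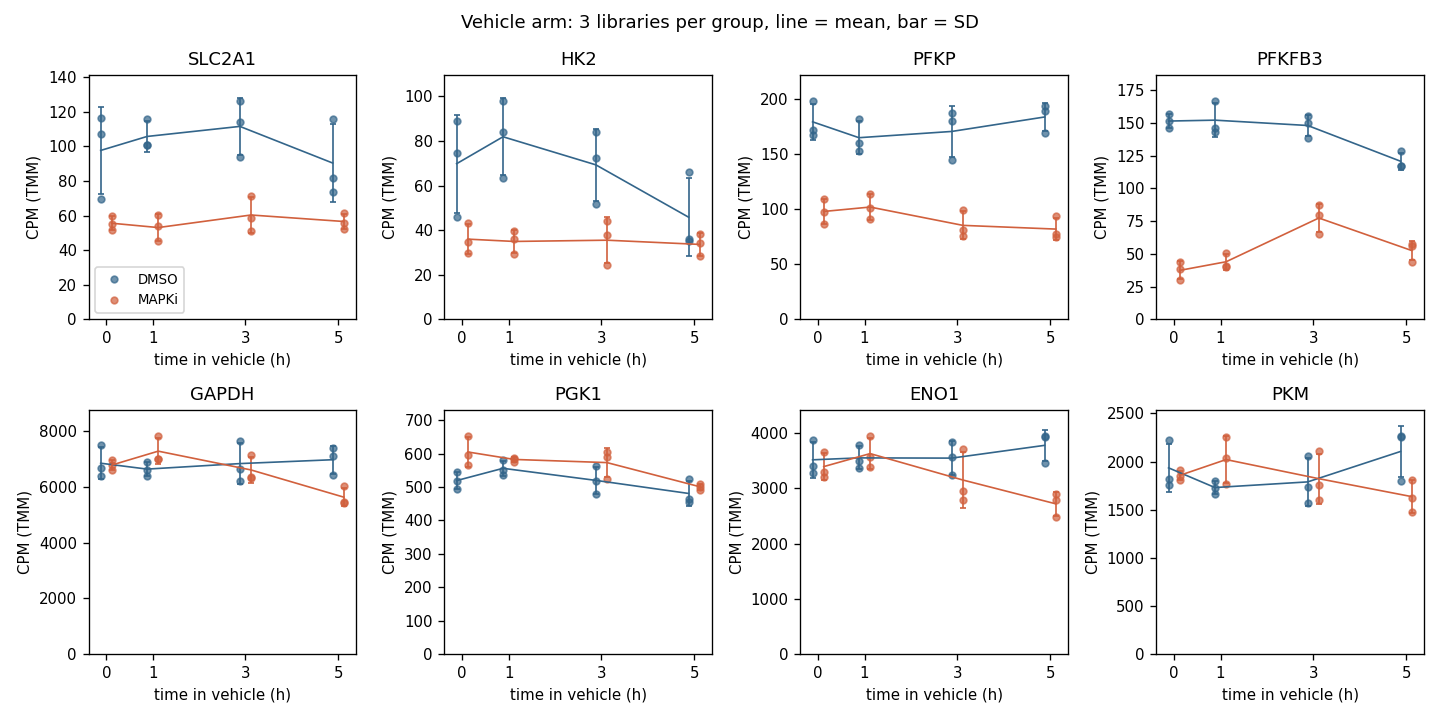
Levels of the 8 tested members in the vehicle arm, in TMM-scaled CPM on linear axes from 0, against time in h, with 1 point per library, lines through the means of 3 libraries and bars of 1 SD, DMSO in blue and MAPKi in orange. SLC2A1, HK2, PFKP and PFKFB3 lie lower in MAPKi. GAPDH, PGK1, ENO1 and PKM lie closer together, though at 5 h all MAPKi libraries of GAPDH and ENO1 lie below the DMSO libraries.

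The lower-step enzymes form the other group. GAPDH, which makes 1,3-bisphosphoglycerate, was at 7487, 6653 and 6382 CPM in DMSO and 6589, 6770 and 6968 CPM in MAPKi at 0 h, and its log2 change over the vehicle times, −0.059, had a 95% interval from −0.15 to 0.027. PKM, the last ATP-yielding step, gave −0.043 with an interval from −0.17 to 0.082. Both intervals lie closer to 0 than the changes of PFKP and PFKFB3. For GAPDH the average joins opposite signs. Its log2 ratio of MAPKi to DMSO means was 0.13 at 1 h and −0.31 at 5 h, without overlap at either time.

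PGK1, the first ATP-yielding enzyme, was at 517, 495 and 546 CPM in DMSO and 567, 653 and 595 CPM in MAPKi at 0 h. It was higher in MAPKi by a log2 change of 0.12 over the vehicle times with a standard error of 0.035 (adjusted p = 0.00154). Without the libraries numbered 2 this was 0.073 and not called. ENO1, the enolase, was lower by −0.17 on the log2 scale (SE 0.046, adjusted p = 0.00103), and without the libraries numbered 1 it was −0.0732 and not called.

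Across all 16 combinations of arm and time, the order of the pretreatments was the same for SLC2A1, PFKP and PFKFB3. The 3 MAPKi libraries lay below the 3 DMSO libraries in 16 of 16 combinations for SLC2A1, PFKP and PFKFB3 and in 11 of 16 for HK2. For GAPDH they lay below in 3 and above in 3, for PGK1 below in 1 and above in 6, for ENO1 below in 6 and above in 0, and for PKM below in 0 and above in 1. The ratio of MAPKi to DMSO means, as log2, ran from −2.20 to −0.93 in PFKFB3 and from −0.36 to 0.40 in PKM. The share of all genes whose libraries separate in this way was not counted, here or for the other separations of groups given in the text.

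Over the 5 h in vehicle the comparison asks how far levels drifted without inhibitor. In DMSO 0 of the 8 members were called by edgeR and 0 by DESeq2, with 2, HK2 and PFKFB3, at an unadjusted p under 0.05, and 1.07% of all genes were called. In MAPKi PFKFB3 rose and PGK1 and ENO1 fell, against 1.26% of all genes higher and 2.13% lower. PFKFB3 averaged 37.4, 44.02, 77.4 and 52.6 CPM at 0, 1, 3 and 5 h in MAPKi, with SDs of 6.81, 5.95, 10.9 and 7.40 (n = 3 each), so that the mean was highest at 3 h. In DMSO it averaged 151, 152, 148 and 121 CPM.

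The log2 change of PFKFB3 from 0 to 5 h was 0.49 in MAPKi with a standard error of 0.15 (adjusted p = 0.0445) and −0.32 in DMSO with a standard error of 0.14 (adjusted p = 0.325). The difference of these changes, a comparison added after the values had been seen, was 0.82 with a standard error of 0.20 (adjusted p = 0.0312), with 0.709% of all genes called. Without any one replicate number neither call remained, though the difference stayed between 0.75 and 0.96. In the same test of the difference, GAPDH (−0.29) and ENO1 (−0.42) had an unadjusted p under 0.05. They were not called (edgeR adjusted p = 0.289 and 0.113). PGK1 and ENO1 fell by 0.27 and 0.32 on the log2 scale in MAPKi (adjusted p = 0.0121 and 0.0327), and these calls too were lost without any one replicate number.

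Cycloheximide at 3 and 5 h, set against vehicle at the same times, asks how levels move when translation stops and transcription goes on. PFKFB3 and SLC2A1 were higher with CHX in both pretreatments, while PFKP, GAPDH, PGK1, ENO1 and PKM were lower. That is 2 higher and 5 lower of 8 in DMSO, against 17.3% and 14.9% of all genes, and 2 higher and 5 lower in MAPKi, against 15.9% and 14%. HK2 was not called in either, with log2 changes of 0.43 (adjusted p = 0.0722) and −0.012.

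PFKFB3 reached 214, 264 and 245 CPM at 5 h of CHX in DMSO, where vehicle libraries stood at 117, 117 and 128 CPM. The inhibitor libraries were all above the vehicle libraries. In MAPKi the 5 h values were 116, 130 and 119 CPM with CHX and 44.1, 56.3 and 57.4 CPM with vehicle, again without overlap. At 1 h of CHX the means were 174.7 CPM in DMSO and 42.2 CPM in MAPKi, beside 152 and 44.02 CPM in vehicle. The log2 change over 3 and 5 h was 0.80 with a standard error of 0.098 in DMSO (adjusted p = 1.75e-10) and 0.74 with a standard error of 0.10 in MAPKi (adjusted p = 5.89e-09).

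SLC2A1 stood at 138, 144 and 176 CPM at 5 h of CHX in DMSO and at 81.9, 73.4 and 116 CPM in vehicle. In MAPKi it stood at 67.5, 97.8 and 86.0 CPM with CHX and 52.5, 56.0 and 61.4 CPM with vehicle, and neither pair of groups overlapped. Its log2 changes were 0.63 in DMSO (adjusted p = 3.08e-05) and 0.44 in MAPKi (adjusted p = 0.00442), the latter 0.30 and not called without the libraries numbered 2.

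The falls were smaller. They ran from −0.39 in PKM to −0.19 in PGK1 on the log2 scale in DMSO, and from −0.38 in PKM to −0.32 in ENO1 in MAPKi. GAPDH at 5 h of CHX in MAPKi was at 4362, 3982 and 4870 CPM, against 6010, 5457 and 5409 CPM in vehicle, and ENO1 at 2063, 2008 and 2058 CPM against 2892, 2781 and 2479 CPM. These falls depend on the scaling. Size factors were also taken from the 36 genes counted as stable under triptolide, whose CPM in T was at least 1.1 times that in vehicle at 0 h. With these, the median change of all genes moved in DMSO from −0.0036 to 0.14 and in MAPKi from −0.013 to 0.28. The members called became SLC2A1, HK2 and PFKFB3 higher and ENO1 lower in DMSO, and SLC2A1 and PFKFB3 higher in MAPKi. The split of all genes went from 2588 higher and 2225 lower to 3721 and 861 in DMSO, and from 2376 and 2087 to 5425 and 333 in MAPKi. Without the libraries numbered 2 in MAPKi, PFKP at −0.22 and PKM at −0.23 were no longer called, and without those numbered 3 in DMSO PGK1 at −0.12 was not.

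In the test of whether the effect of CHX differed between pretreatments, 0 of 8 members were called by edgeR and 0 by DESeq2, with 1, PGK1, at an unadjusted p under 0.05, and 11% of all genes were called. Without a filter on low counts HK2 was called, at −0.44 (adjusted p = 0.0499). PFKFB3 differed by −0.059, with a 95% interval from −0.33 to 0.21, and SLC2A1 by −0.18, with an interval from −0.53 to 0.16.

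**Figure D2:**
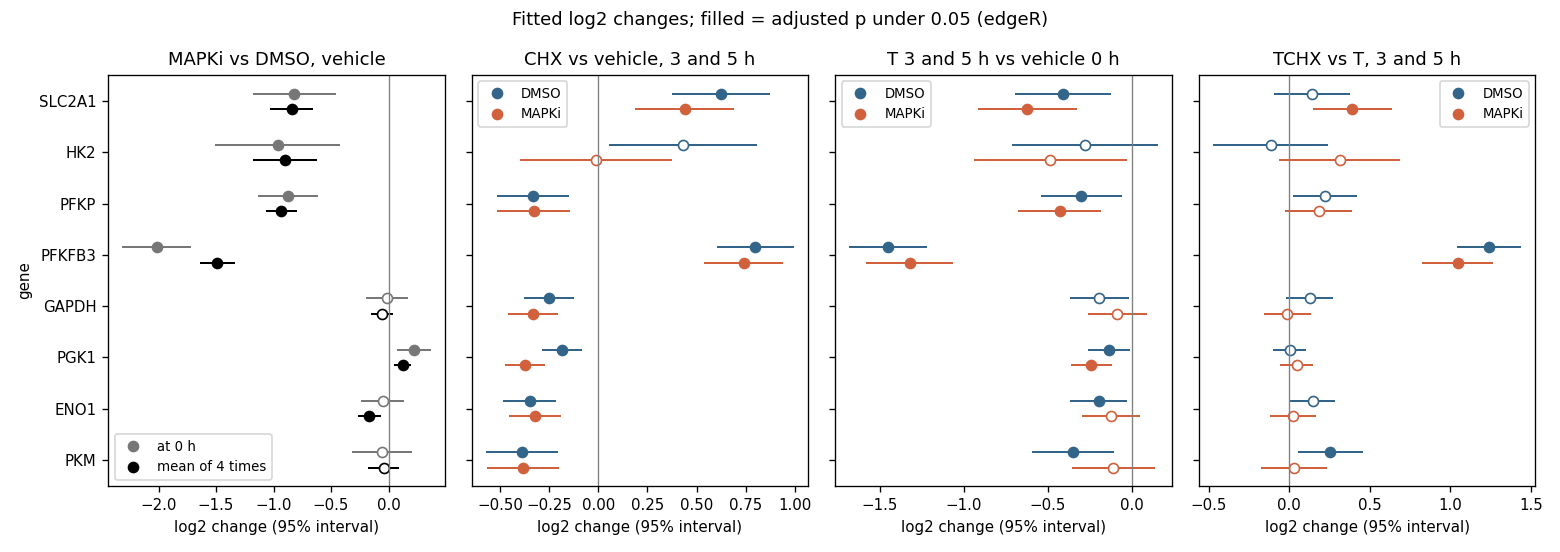
Fitted log2 changes with 95% intervals for the 8 tested members in 4 comparisons, each panel with its own axis, filled where the edgeR adjusted p is under 0.05. PFKFB3 has the largest change in each panel, down under MAPKi and triptolide and up with CHX and with TCHX against T.

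Triptolide stops new transcription, so the share of an mRNA left at 3 and 5 h follows its decay. Values were scaled by the stable genes, none of which is a member, and set against vehicle at 0 h, for percentages with libraries of like number, although the numbers were not taken to pair the samples. Of the 8, PFKFB3 lost the most. In DMSO SLC2A1, PFKP, PFKFB3, PGK1, ENO1 and PKM were lower, 6 of 8 against 48.7% of all genes lower. In MAPKi SLC2A1, PFKP, PFKFB3 and PGK1 were lower, 4 of 8 against 56.1%. The members' median log2 change was −0.29 in DMSO and −0.34 in MAPKi, against −0.47 and −0.59 for all genes.

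PFKFB3 stood at 47.0%, 45.04% and 48.5% of its initial level at 3 h in the 3 DMSO replicates, and at 29.8%, 28.5% and 27.4% at 5 h. In MAPKi it stood at 45.4%, 48.2% and 46.9% at 3 h and at 38.8%, 32.5% and 33.2% at 5 h. The values of the pretreatments overlapped at 3 h, and at 5 h all MAPKi values lay above all DMSO values. The fitted log2 change over 3 and 5 h was −1.45 with a standard error of 0.11 in DMSO (adjusted p = 5.38e-19) and −1.32 with a standard error of 0.13 in MAPKi (adjusted p = 6.69e-15).

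At 5 h the means of the other members were above that of the median gene, which was at 65.1% ± 1.60 at 5 h in DMSO (SD, n = 3) and 59.2% ± 2.36 for MAPKi. GAPDH kept 85.9% ± 6.01 in DMSO and 95.3% ± 7.15 in MAPKi, PGK1 87.8% ± 3.98 and 84.2% ± 6.79, and SLC2A1 72.1% ± 9.11 and 64.0% ± 11.0. HK2 kept 87.0% ± 13.2 and 70.1% ± 14.9, and was not called. At 3 h in MAPKi SLC2A1, at 65.9% ± 11.4, was below the median gene, at 70.2% ± 3.45.

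These small losses hang on the scaling, and the loss of PFKFB3 does not. With TMM, which sets the bulk of genes level, GAPDH, PGK1 and ENO1 were higher under triptolide in both pretreatments, PKM too in MAPKi, and PFKP gave log2 changes of 0.17 and 0.20 and SLC2A1 0.046 and 0.00575, none of them called, whereas PFKFB3 was lower under each scaling tried. TMM moved the median of all genes in DMSO from −0.47 to −0.0089 and in MAPKi from −0.59 to 0.035, and the split of all genes from 195 higher and 7273 lower to 1762 and 3146 in DMSO and from 191 and 8385 to 2782 and 3170 in MAPKi. Without the libraries numbered 1, the DMSO changes of PFKP (−0.29), PGK1 (−0.16) and ENO1 (−0.18) were no longer called, without those numbered 2 that of SLC2A1 (−0.45) was not, and without those numbered 3 that of PGK1 (−0.22) was not. With T at 0 h in place of vehicle at 0 h as the initial level, SLC2A1 was no longer called in DMSO (−0.18) or MAPKi (−0.22) nor PGK1 in DMSO (−0.071), and GAPDH (−0.36) and PKM (−0.48) were called in MAPKi. The test of a difference in the decline between pretreatments gave 0 of 8 members called by edgeR or DESeq2 and 0 at an unadjusted p under 0.05, against 3.17% of all genes called, and the difference for PFKFB3 was 0.13 with a 95% interval from −0.22 to 0.48.

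**Figure D3:**
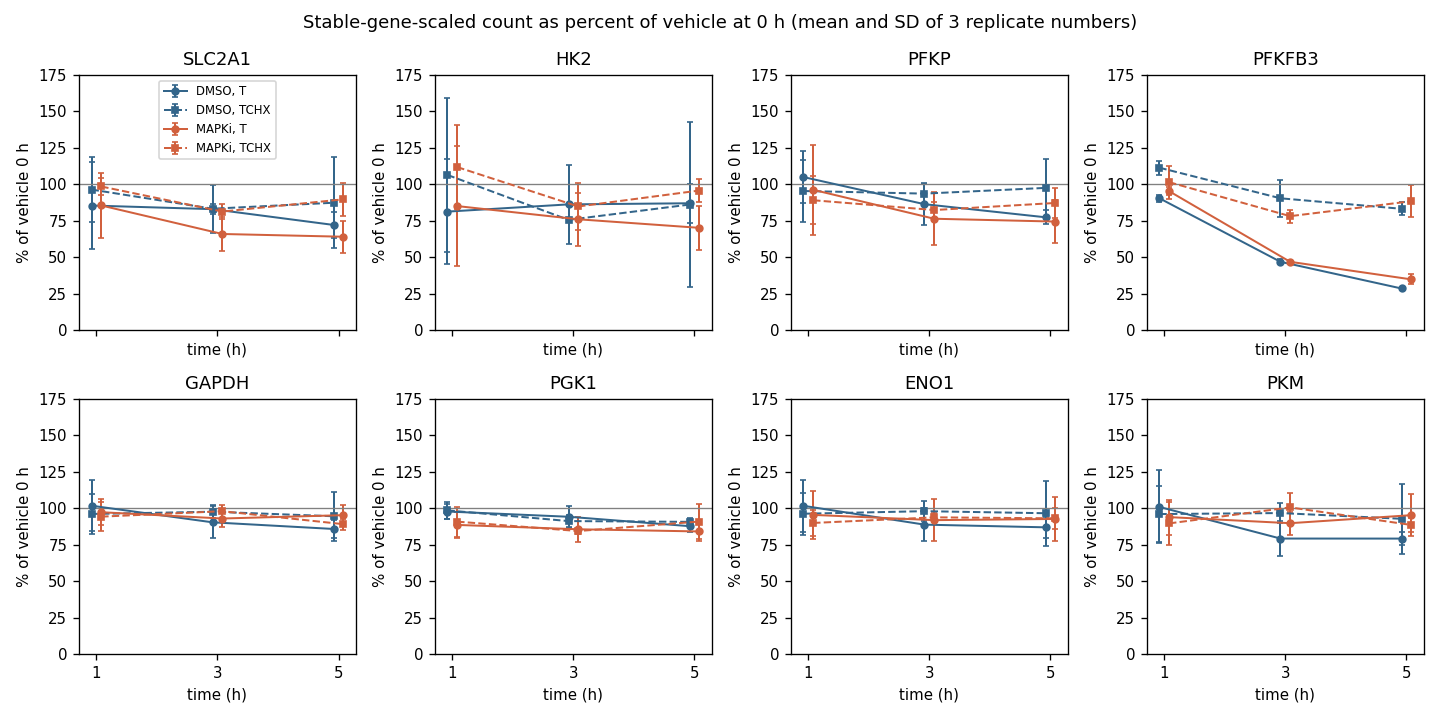
Stable-gene-scaled counts in the triptolide arms as a percent of vehicle at 0 h, against time in h, on linear axes from 0, as means with bars of 1 SD over 3 replicate numbers, solid lines for T and dashed lines for TCHX. PFKFB3 falls to 28.6% in DMSO and 34.8% in MAPKi at 5 h of T and stays at 83.2% and 88.3% with TCHX, while the other members keep 64.0% or more on average at 5 h of T.

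Adding CHX to triptolide asks how much of the decay needs translation. PFKFB3 was higher in TCHX than in T in both pretreatments, and PKM passed the test in DMSO and SLC2A1 in MAPKi. That is 2 of 8 higher in DMSO against 28.4% of all genes, and 2 of 8 in MAPKi against 41.4%. At 5 h PFKFB3 stood at 78.6%, 83.3% and 87.6% of its initial level with TCHX in DMSO and at 79.8%, 84.6% and 101% in MAPKi, all above the highest T value. The log2 difference was 1.24 with a standard error of 0.098 in DMSO (adjusted p = 1.1e-18) and 1.05 with a standard error of 0.11 in MAPKi (adjusted p = 1.68e-13).

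The TDD index, that is, TCHX minus T over the initial level averaged over 3 and 5 h, for PFKFB3 was 0.491 ± 0.0895 (SD, n = 3) in DMSO and 0.424 ± 0.0429 with MAPKi. The median gene had 0.121 ± 0.0342 and 0.176 ± 0.0108. SLC2A1 had 0.0776 ± 0.0398 and 0.205 ± 0.0716 and PKM 0.155 ± 0.0552 and 0.0206 ± 0.0795. The means of HK2, GAPDH, PGK1, ENO1 and PFKP lay between −0.0574 and 0.172. The scaling genes behind these indices, and behind the shares of all genes called above, were picked by their CPM in T and not in TCHX. The index of the median gene is therefore no neutral benchmark. Its log2 difference between TCHX and T was 0.227 (DMSO) and 0.335 (MAPKi) with this set. The 85 genes stable at 3 or 5 h in both arms gave only 0.083 (DMSO) and 0.121 (MAPKi).

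PKM in DMSO was higher by 0.25 (adjusted p = 0.0458) and, at 0.23, 0.21 and 0.27 without the libraries numbered 1, 2 and 3, was not called. SLC2A1 in MAPKi was higher by 0.39 (adjusted p = 0.00565), and by 0.34 and not called without the libraries numbered 1. With TMM neither was called, and GAPDH, PGK1, ENO1 and PKM were then lower in TCHX than in T in MAPKi. TMM moved the median of all genes in DMSO from 0.23 to 0.015 and in MAPKi from 0.34 to −0.027, and the split of all genes from 4247 higher and 70 lower to 2363 and 834 in DMSO and from 6194 and 80 to 2919 and 2020 in MAPKi. Between pretreatments 0 of 8 members differed by edgeR or DESeq2 and 0 at an unadjusted p under 0.05, against 7.11% of all genes called. The difference was 0.25 for SLC2A1, with a 95% interval from −0.08 to 0.58, and −0.20 for PFKFB3, with an interval from −0.48 to 0.09.

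**Figure D4:**
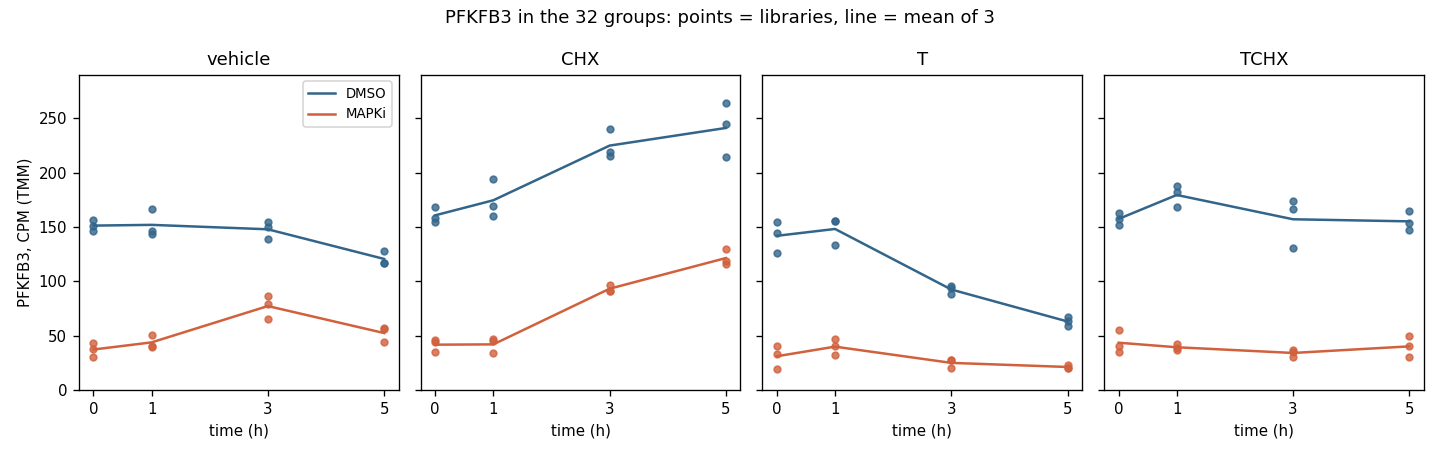
PFKFB3 in each library of the 4 arms, in TMM-scaled CPM on a linear axis from 0, against time in h, with lines through the means of 3 libraries. In CHX it climbs to 241 CPM in DMSO and 122 CPM in MAPKi at 5 h, and in T it falls to 63.2 and 21.4 CPM.

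Over the 32 groups PFKFB3 had the widest range of the 8, from a mean of 21.4 CPM in MAPKi at 5 h of T to 241 CPM in DMSO at 5 h of CHX, a ratio of 11.3. SLC2A1, HK2 and PFKP spanned ratios of 3.51 to 3.87, with the lowest means of SLC2A1 and HK2 in MAPKi at 0 h of T, the group of the shallowest library, and the 4 lower-step genes 2.28 to 2.54. GAPDH, PGK1, ENO1 and PKM all had their lowest mean in MAPKi at 5 h of CHX and their highest in MAPKi at 5 h of T. With groups ordered by mean, 27 of the 31 neighbouring pairs overlapped in PFKFB3 and 27 to 31 in the other members, so that most neighbours in the order do not differ beyond their spread.

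By their profiles over the groups the members fell into blocks. Pearson correlations of mean log2 CPM over 32 groups ran from 0.63 to 0.89 among SLC2A1, HK2, PFKP and PFKFB3, from 0.82 to 0.96 among GAPDH, PGK1, ENO1 and PKM, and from −0.66 to 0.56 between the blocks. The points share treatments and the scaling of TMM, and no test was made. The genes outside the members closest to their mean standardised profile were CD74 (r = 0.99), PHB2 (0.99), PRDX6 (0.98), BCAP31 (0.98) and AURKAIP1 (0.98). For members taken singly, the closest gene was SRSF2 for SLC2A1, SRSF1 for HK2, FARP1 for PFKP, FOSL1 for PFKFB3, RPLP1 for PGK1, RPS3 for ENO1 and TKT for PKM, with r from 0.97 to 0.99 over the 32 groups.

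**Figure D5:**
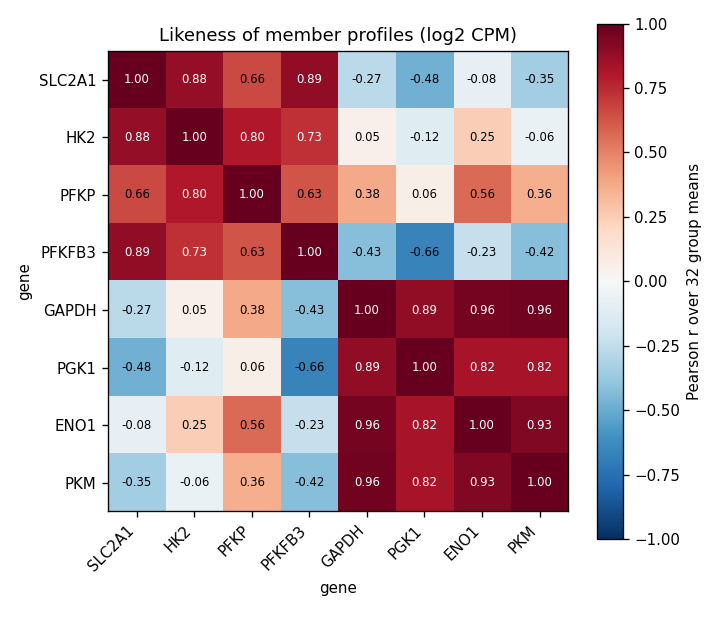
Pearson correlations between the 8 tested members over 32 group means of log2 CPM, with a colour scale from −1 to 1. The upper-step genes and the lower-step genes form blocks, and PFKFB3 with PGK1 has the lowest value, −0.66.

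The rest of the pathway was read from 6 lists, in MAPKi against DMSO averaged over the vehicle times. Of 18 tested isoforms and other glycolytic enzymes, 10 were higher and 3 lower, with a median log2 change of 0.32 against 0.060 for all genes. HKDC1, a hexokinase-like protein, went from a median of 0.346 to 16.7 CPM over 12 libraries each, ENO3, the muscle enolase, from 6.05 to 28.8 CPM, and ALDOC, an aldolase isoform, from 18.1 to 62.7 CPM, with no overlap in these. PFKFB4, a relative of PFKFB3, was lower (85.5 to 37.5 CPM), and so were PGM2 (35.6 to 27.1 CPM), a phosphoglucomutase, and LDHB (1347 to 1138 CPM), the other main lactate dehydrogenase. Other genes of the phosphofructokinase step, named after their values were seen, were higher in MAPKi: PFKFB2 by 1.80 (12.1 to 49.0 CPM, without overlap), PFKL by 0.38 and PFKM by 0.37 on the log2 scale.

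Of 7 tested transporters of glucose and lactate, 4 were higher and 2 lower. SLC2A3, the GLUT3 transporter, was lower in MAPKi by −2.40 with a standard error of 0.10 (adjusted p = 6.92e-36), from a median of 40.6 to 7.92 CPM, with the groups apart. SLC16A7, a monocarboxylate transporter, was lower by −0.32. SLC16A3, the lactate exporter MCT4, was higher but at low levels, with a median of 0.533 CPM in DMSO and 1.83 CPM in MAPKi, and SLC2A12 had medians of 0 and 0.741 CPM.

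Around pyruvate dehydrogenase 9 of 14 were higher and 4 lower. The kinase genes PDK2 and PDK3, which shut the complex off, were higher by 1.26 and 0.73, and the kinase genes PDK1 and PDK4 were lower by −0.49 and −0.87. MPC1, the mitochondrial pyruvate carrier, was higher by 0.91, and PDP2, a phosphatase of the complex, was lower by −1.40. Of 16 TCA cycle genes 11 were higher and 1 lower, with OGDH, of the oxoglutarate dehydrogenase complex, higher by 0.97, and DLST, of the same complex, lower by −0.15 (adjusted p = 0.0499). SDHD was higher by 0.90, from a median of 2.12 to 4.92 CPM.

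In the branches off glycolysis 3 of 16 were higher and 10 lower, with a median log2 change of −0.26. RPIA, of the pentose phosphate route, was lower by −1.45, and UAP1 and GNPNAT1, of hexosamine synthesis, were lower by −1.28 and −1.25. TALDO1 and PGLS, also of the pentose phosphate route, were higher by 0.32 and 0.33. Of 22 tested HIF genes and other known HIF targets 11 were higher and 5 lower, so these did not move one way. EPAS1 (HIF2A) was higher by 2.50 and BNIP3L, a mitophagy receptor, by 1.48, while ADM, a peptide hormone, and STC2, a secreted glycoprotein, were lower by −2.34 and −2.92 and ERO1A, an oxidase of the endoplasmic reticulum, by −0.55. CA12, a carbonic anhydrase at medians of 0.319 and 0.682 CPM, was higher by 1.123 (adjusted p = 0.0124). Moving the same way in 3 of 3 replicate numbers was part of the rule that picked most list genes named here, so it is no separate support. The counts can be read against the shares of all genes higher and lower in this comparison given above.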

How the data were processed

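Cytoplasmic RNA of A375 cells (500 ng per library) was made into QuantSeq 3′ mRNA libraries, which are read from transcript ends. Per the labels and the study's methods, the authors trimmed reads with fastp 0.20.1, aligned them to GRCh38.p13 with HISAT2 2.2.1 and counted exons with HTSeq 0.13.5, and they deposited the raw counts per gene, without normalisation. Use of strand and treatment of reads with several matches are not given in the sources used here. All 96 columns matched a sample (0 unmatched), and groups came from the labels.

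The counts were fitted with edgeR 4.0.16 in R 4.3.3 by its quasi-likelihood test, with 1 mean per group over all 96 libraries, after filterByExpr kept 14948 genes. TMM scaled the MAPKi, time and CHX comparisons, and 36 genes stable under triptolide scaled the T and TCHX comparisons. Adjusted p-values are Benjamini-Hochberg over all genes tested, in each of 14 comparisons, with a threshold of 0.05. DESeq2 1.42.0, other scalings, no filter, a replicate block and leaving out replicates were alternatives. The scripts were tested on simulated data. Total counts per library ran from 2381351 to 12520154, and no molecular identifiers are described. Intervals on log2 changes come from the edgeR fit and cover the spread between libraries. The limit given for a count of 0 covers counting error only.

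The members and lists were chosen with earlier results of these data known. List genes named in the text were, per list, up to 3 called genes with the largest change in each direction that moved the same way in every replicate number. HK1, PFKFB2, PFKL and PFKM were named outside this rule. A few genes that this rule or the likeness of profiles picks are not reported here. The comparison of the vehicle time change between pretreatments was added after the values had been seen. Gene coordinates come from GENCODE v44 and promoter sequences from RefSeq.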

Additional observations from a re-analysis of the deposited data

Results flagged for a closer look

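The change of PFKFB3 from 0 to 5 h in vehicle differed between the pretreatments by a log2 difference of 0.82 (MAPKi minus DMSO), in a test of the difference itself that was added after the values had been seen. The difference was 0.82, 0.75 and 0.96 without the libraries numbered 1, 2 and 3, and it was not called in any of these fits.

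LDHA_1, a repeat entry in the count table, reached 30 counts in 1 library, above the 3 counts that a count of 0 allows. It passed the filter and was among all genes tested, but its own changes are not given here. Its median was 7 counts, and LDHA itself reached 3.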

How the results depend on the processing

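The scaling set most of what moved. Under TMM the log2 changes of members with triptolide reversed in DMSO for ENO1 (0.27), GAPDH (0.28), PFKP (0.17), PGK1 (0.33), PKM (0.12) and SLC2A1 (0.046), and in MAPKi for ENO1 (0.50), GAPDH (0.54), PFKP (0.20), PGK1 (0.39), PKM (0.52) and SLC2A1 (0.00575). Scaling by total counts reversed ENO1 (0.13), PFKP (0.023) and PGK1 (0.18) in DMSO and ENO1 (0.23), GAPDH (0.27) and PGK1 (0.12) in MAPKi. For TCHX against T, PGK1 in DMSO became −0.21 with TMM and −0.15 with total counts. In MAPKi, TMM gave ENO1 −0.34, PGK1 −0.32 and PKM −0.34, total counts gave ENO1 −0.20 and PGK1 −0.18, and the 85 genes stable at 3 or 5 h in both arms gave ENO1 −0.19 and PGK1 −0.17. The cause was not tested. PFKFB3 kept its direction and call in T and in TCHX against T under all alternatives run.

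Numbers of members called moved as follows. With stable-gene scaling they were 1 for time in MAPKi, 4 for CHX in DMSO and 2 for CHX in MAPKi. Without a filter they were 1 for time in DMSO, 1 for the CHX difference between pretreatments and 2 for the time difference between pretreatments. For T in DMSO they were 2 with total counts, PFKFB3 lower and PGK1 higher, and 3 with genes stable at 3 or 5 h. For T in MAPKi they were 8 with the 85 genes. For TCHX they were 1 in DMSO with either of those stable sets. In MAPKi they were 5 with TMM, 4 with total counts and 4 with the 85 genes, and in each only PFKFB3 was higher. ENO1, GAPDH and PGK1 were lower in each, and PKM too with TMM. The difference between pretreatments had 1 with TMM, GAPDH at −0.29. Leaving out each replicate number gave 0 to 0 for time in MAPKi and for the time difference, 4 to 7 for CHX in MAPKi, 3 to 6 for T in DMSO, 1 to 1 for TCHX in DMSO and 1 to 2 for TCHX in MAPKi. Of 1064 refitted member changes, 952 kept their side of the threshold, some uncalled changes near 0 turning sign, 26 gained a call, 59 lost one and 27 that were called on at least 1 side reversed. By more than 1 SD between replicates, 83 of 288 values of percent remaining and 46 of 144 TDD indices moved. Leaving out a replicate number also redrew the stable genes, from 36 to 96, 131 and 164, so both choices changed at once in the T and TCHX comparisons.

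The replicate numbers were not taken to pair the samples, since no comparison had all same-number correlations of deviations over 0.1. They ran from −0.089 to 0.047 in vehicle at 0 h. Over the vehicle times 34 of 84 were over 0.1, with a median of 0.053 against −0.024 for different numbers, and for CHX in DMSO 6 of 18 were. With the replicate block 7 members were called for T in DMSO, 8 for CHX in DMSO and 1, PGK1 at −0.19, for the CHX difference between pretreatments.

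Over all genes, calls for T in DMSO numbered 7468, and 4908 with TMM or 4602 with total counts (651 higher, 3951 lower). For T in MAPKi they numbered 8576, and 5311 with total counts (674 higher, 4637 lower). The T difference had 474 calls (62 higher, 412 lower), 270 with the 85 genes (65 and 205), 132 higher and 203 lower with TMM, and 129 to 198 without a replicate number. TCHX in DMSO had 4317 and 2843 with the 85 genes, and in MAPKi total counts gave 3785 higher and 754 lower and the 85 genes 3718 and 488. The TCHX difference had 1063, 549 with TMM (420 and 129), 590 with the 85 genes and 443 to 544 without a replicate number. The CHX difference had 1638 (749 and 889), 1459 higher and 419 lower with stable genes, and 780 and 799 without numbers 1 and 3. Time in DMSO had 160, 410 with no filter and 36 to 76 without a replicate number, with 74 higher and 33 lower by stable genes. Time in MAPKi had 507, 323 by stable genes (200 and 123) and 117 to 176. The time difference had 106, 41 by stable genes, 395 with no filter, 213 with DESeq2 and 6 to 8.

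A set of genes stable in both arms at both times held 1 gene and was not run, and was replaced by the 85 genes, chosen after seeing the data. The stable set without members was the main set itself, and no pseudogene entries were found to add. At their counts no difference in the entries ALDOA or LDHA could be detected.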
